A study of Mus musculus with 15 samples.

Results

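The nuclear genes for the subunits of the oxidative phosphorylation machinery, with the assembly factors and paralogues that share their names, were followed across mouse embryonic stem (ES) cells and the embryoid bodies that the labels call EB9. Members were all non-control probes whose gene name starts with Ndufa, Ndufb, Ndufc, Ndufs, Ndufv, Sdh, Uqcr, Cox4, Cox5, Cox6, Cox7, Cox8 or Atp5, a choice made by name and not by level. This gave 92 gene names on 126 probes, out of 30905 gene names on the array, and each gene was represented by its brightest probe. By textbook role, 36 members belong to complex I, 4 to complex II, 8 to complex III, 18 to complex IV and 15 to complex V. The other 11 are 6 assembly factors, 2 paralogues and 3 proteins of other kinds that the prefixes also catch. A low-signal filter kept 91 members among 21217 tested genes. Cox8b, a muscle isoform of complex IV in rodents, was the one left out, because it was not well above background on any array.

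The 4 groups were EB9 with Cbx7 depleted by the hairpin KD33 (4 arrays), control EB9 (4), ES cells with Cbx7 depleted by KD33 (4) and control ES cells (3). Cbx7 is a chromodomain protein of Polycomb repressive complex 1, a repressor of developmental genes in ES cells. The depletion rests on 1 hairpin. The control arrays are labelled with no treatment, while the design text gives a control hairpin for the ES controls. The arrays are named biological replicates, and neither the ES cell line, the genotype nor the meaning of the 9 in EB9 is given in the labels. Embryoid bodies are aggregates in which ES cells differentiate into a mixture of cell types.

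Oxidative phosphorylation takes place in the inner mitochondrial membrane. Complexes I and II pass electrons from NADH and succinate to ubiquinone, complex III passes them on to cytochrome c, and complex IV hands them to oxygen. Complexes I, III and IV pump protons, and complex V, the ATP synthase, uses the proton gradient to make ATP. Most subunits are encoded in the nucleus and a small set in mitochondrial DNA. Several subunits of complex IV exist as pairs of isoforms, one found in most tissues and the other in particular tissues such as muscle or testis. Pluripotent stem cells are known for a high rate of glycolysis beside respiration.

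Levels are log2 signals relative to each array's 75th percentile, so a level above 0 is brighter than that percentile, and levels of different genes are not comparable. The share of features well above background was 62.5% to 69.0%, except for 75.4% on EB9 control 2. The 75th percentile ranged from 1483 to 2531 intensity units, and no feature was saturated. The arrays lay on 4 slides with each group always at 1 position, so that an effect of position and one of group cannot be told apart. Slide 4 carried no array of control ES cells. One of 2 Cbx7 probes read −7.85, −4.44, −4.61 and −7.37 in knockdown ES cells, against −6.30, −3.14 and −3.04 in control ES cells. It was above background on 2 of the 4 knockdown and on all 3 control ES arrays, so no fold is given. With limma its difference between the ES groups did not pass (adjusted p = 0.256). With a term for the slide it passed as lower in the knockdown (adjusted p = 1e-04). The arrays where both groups were above background, on slides 2 and 3, read −4.44 and −4.61 in knockdown ES cells, against −3.14 and −3.04 in control ES cells. In EB9 that probe was above background on 2 arrays of each group. The other probe, above background on all 15 arrays, differed by −0.13 (adjusted p = 0.733) in ES cells and by −0.16 (adjusted p = 0.708) in EB9, so that a lower Cbx7 level in the knockdown did not pass with it in either cell type. The labelled cell types showed their markers: the summed linear level of 8 ES cell markers, all of which fell in EB9 in both comparisons, was 6.92 to 8.21 in knockdown EB9, 5.85 to 7.66 in control EB9, 177 to 197 in knockdown ES cells and 204 to 219 in control ES cells, in multiples of the 75th percentile. A p-value here weighs a difference against the spread between arrays, and the number of arrays limits the precision.

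The first question was how the machinery differs between EB9 and ES cells. Most subunit transcripts were lower in EB9. Between knockdown EB9 and knockdown ES cells, 77 of 91 tested members fell and 6 rose at an adjusted p under 0.05, where 44.1% of all tested genes fell and 33.8% rose. Between control EB9 and control ES cells, 68 members fell and 5 rose, where the shares of all genes were 41.5% and 33.2%. The median member differed by −0.83 on the log2 scale in knockdown and by −0.61 in control cells, against medians of −0.18 and −0.14 over all tested genes. At least 2-fold lower levels were found for 35 members in knockdown and 21 in control cells, where 23.2% and 21.8% of all genes fell that far. All 68 members that fell in control cells also fell in knockdown cells, which is 88.3% of the 77. In bulk RNA, fewer cells of a type and less RNA per cell cannot be told apart, and EB9 holds a mixture of cell types.

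With a term for the slide, 80 members fell and 7 rose in knockdown cells, where 48.7% and 36.3% of all genes did. In control cells, 73 fell and 5 rose with that term, where the shares were 45.1% and 36.1%. Within single slides the median member differed by −0.87, −0.77, −0.81 and −0.90 in knockdown cells and by −0.58, −0.58 and −0.61 in control cells, against all-gene medians of −0.23, −0.20, −0.12 and −0.17 in knockdown and −0.08, −0.07 and −0.15 in control cells. Scaling each array on its median in place of the 75th percentile moved the all-gene median of the control comparison to 0.02, and the members' median there was −0.45. Under all 3 other scalings, 61 of the 73 calls in control cells and 75 of the 83 in knockdown cells were kept in the same direction.

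**Figure D1:**
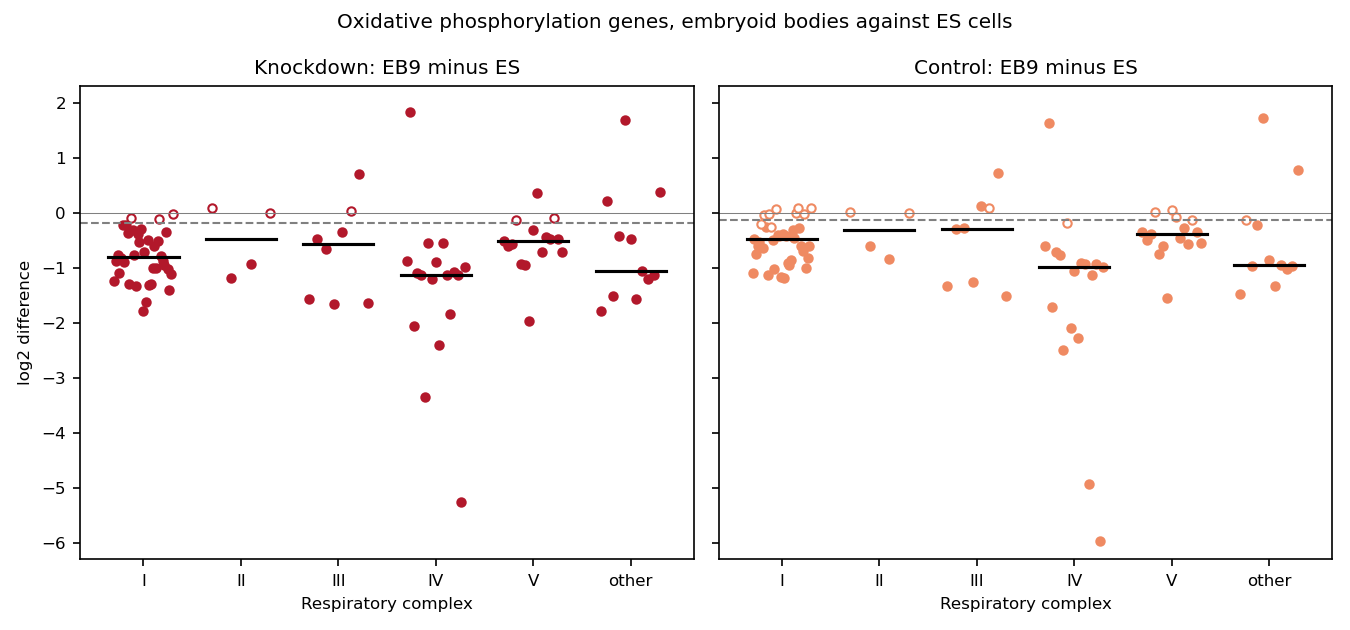
Log2 differences of the 91 tested members between EB9 and ES cells by complex, in knockdown cells (left) and control cells (right). Filled points passed an adjusted p of 0.05 and open points did not, the bars are the medians of each complex, and the dashed line is the median of all tested genes. Members of complexes I and IV lie mostly below the dashed line in both panels.

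Complex I, the NADH dehydrogenase, was lower in EB9 for most of its subunits. In knockdown cells 33 of its 36 members fell, with a median of −0.81, and Ndufa8, Ndufs3 and Ndufv3 did not pass. With a slide term Ndufa8 and Ndufs3 passed there too (adjusted p = 0.0302 and 0.0147). In control cells 27 fell and 9 did not pass, 3 of them with positive differences, and the median was −0.49. Among these 9 was Ndufb11, whose control EB9 arrays all lay above the control ES arrays, with a difference of 0.07 (adjusted p = 0.21). With limma no complex I member rose by its brightest probe in either comparison, and none was higher at an unadjusted p under 0.05. Ndufv1, the flavoprotein subunit that first takes electrons from NADH (mm9 chromosome 19, 4007508 to 4007567), read 4.72, 4.71, 4.64 and 4.67 in knockdown EB9, 4.82, 4.80, 4.81 and 4.83 in control EB9, 6.19, 6.03, 6.0 and 6.15 in knockdown ES cells and 5.67, 5.58 and 5.66 in control ES cells. All EB9 arrays lay below all ES arrays, and knockdown ES cells lay above control ES cells. The difference between EB9 and ES cells was −1.41 ± 0.05 (SE, adjusted p = 7.61e-12) in knockdown cells, which is 2.65-fold lower, and −0.82 ± 0.05 (SE, adjusted p = 5.12e-09) in control cells, which is 1.77-fold lower.

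Among accessory subunits, Ndufb4 of the membrane arm read 3.67, 3.96, 3.77 and 3.71 in knockdown EB9, 3.98, 3.98, 4.0 and 4.0 in control EB9, 5.62, 5.50, 5.53 and 5.59 in knockdown ES cells and 5.09, 5.09 and 5.28 in control ES cells. It was 3.44-fold lower in EB9 in knockdown cells and 2.24-fold lower in control cells, and neither pair of groups overlapped. Ndufb6, of the same arm, fell by 1.62 in knockdown EB9 (adjusted p = 2.48e-12) and by 1.2 in control EB9 (adjusted p = 1.27e-10). These were the accessory subunits with the most negative differences in each comparison. Of the core subunits, Ndufs8, an iron-sulphur protein, differed by −1.02 in knockdown and −1.0 in control cells. Ndufs1, the largest core subunit, differed by −1.0 and −0.46, the second kept under 2 of the 3 other scalings.

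Complex II, the succinate dehydrogenase that also serves the citric acid cycle, was split. Sdhb, its iron-sulphur subunit (mm9 chromosome 4, 140535052 to 140535108), read 4.66, 4.67, 4.55 and 4.65 in knockdown EB9, 4.80, 4.58, 4.73 and 4.81 in control EB9, 5.91, 5.78, 5.75 and 5.87 in knockdown ES cells and 5.39, 5.29 and 5.34 in control ES cells. Every EB9 array lay below every ES array. The difference between EB9 and ES cells was −1.2 ± 0.06 (SE, adjusted p = 4.32e-10) in knockdown and −0.61 ± 0.06 (SE, adjusted p = 1.3e-06) in control cells. The membrane anchor Sdhc fell by 0.94 in knockdown and 0.85 in control EB9. The catalytic flavoprotein Sdha read 4.39, 4.37, 4.32 and 4.35 in knockdown EB9, 3.97, 3.87, 3.89 and 3.91 in control EB9, 4.27, 4.30, 4.22 and 4.29 in knockdown ES cells and 3.93, 3.90 and 3.88 in control ES cells. All its knockdown arrays lay above all its control arrays, with EB9 minus ES differences of 0.09 (adjusted p = 0.0545) in knockdown and 0.01 (adjusted p = 0.845) in control cells, of which the first passed with a slide term (adjusted p = 0.0233). The second anchor, Sdhd, differed by −0.02 and −0.01.

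In complex III, the cytochrome bc1 complex, 6 of 8 members fell and 1 rose in knockdown cells, and 5 fell and 2 rose in control cells. Uqcrc1, one of the large core proteins, read 2.95, 2.91, 2.82 and 2.88 in knockdown EB9, 3.06, 2.97, 3.0 and 3.04 in control EB9, 4.59, 4.52, 4.53 and 4.58 in knockdown ES cells and 4.29, 4.27 and 4.28 in control ES cells. It was 3.17-fold lower in knockdown EB9 (adjusted p = 3.91e-13) and 2.4-fold lower in control EB9 (adjusted p = 1.33e-11), with no overlap of arrays. Uqcrq, a small subunit, was 3.12-fold and 2.87-fold lower. Uqcrh, the hinge protein that faces cytochrome c, went the other way and read 5.65, 5.47, 5.58 and 5.70 in knockdown EB9, 5.65, 5.53, 5.51 and 5.52 in control EB9, 4.89, 4.83, 4.89 and 4.95 in knockdown ES cells and 4.85, 4.76 and 4.92 in control ES cells. Its EB9 arrays all lay above its ES arrays, by 0.71 ± 0.06 (SE, adjusted p = 8.87e-08) in knockdown and 0.71 ± 0.06 (SE, adjusted p = 2.16e-07) in control cells. The Rieske iron-sulphur protein Uqcrfs1 did not pass in either comparison (0.02 and 0.08). Uqcrc2, the partner of Uqcrc1, differed by −0.35 (adjusted p = 6.45e-06) in knockdown and 0.11 (adjusted p = 0.0432) in control cells.

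Complex IV, cytochrome c oxidase, had the most negative median of the 5 complexes, −1.13 in knockdown and −0.99 in control cells. Of its 11 general subunits, 11 fell in knockdown and 10 in control cells, Cox6b1 being the one that did not pass, at −0.20 (adjusted p = 0.066), though it fell with a slide term (adjusted p = 0.00069). Cox5a, which lies on the matrix side of the enzyme, read 4.47, 4.74, 4.52 and 4.52 in knockdown EB9, 4.70, 4.88, 4.79 and 4.84 in control EB9, 6.69, 6.64, 6.51 and 6.69 in knockdown ES cells and 6.47, 6.50 and 6.59 in control ES cells. Its EB9 and ES arrays did not overlap, and it was 4.19-fold lower in knockdown EB9 and 3.28-fold lower in control EB9. Cox7c and Cox8a, small membrane-spanning subunits, differed by −1.08 and −1.13 in knockdown and by −1.14 and −0.93 in control cells. Ndufa4, now counted as a complex IV subunit, differed by −0.98 and −0.99.

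Complex V, the ATP synthase, moved less than complexes I and IV, with medians of −0.51 in knockdown and −0.40 in control cells. In knockdown cells 12 of 15 members fell and 1 rose, and in control cells 11 fell. With limma no complex V member rose in control cells, and none was higher there at an unadjusted p under 0.05. The catalytic F1 subunits Atp5a1 and Atp5b differed by −0.51 and −0.61 in knockdown and by −0.35 and −0.51 in control cells, and all 4 differences passed.

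The c subunit of the rotor ring is encoded by 3 genes with the same mature protein, and their transcripts moved differently. Atp5g1 read 4.32, 4.39, 4.16 and 4.28 in knockdown EB9, 4.56, 4.35, 4.44 and 4.52 in control EB9, 6.36, 6.26, 6.12 and 6.32 in knockdown ES cells and 6.06, 6.0 and 6.03 in control ES cells. It was 3.94-fold lower in knockdown EB9 and 2.95-fold lower in control EB9, without overlap. Atp5g2 read 5.95, 6.03, 5.95 and 5.99 in knockdown EB9, 6.08, 5.99, 5.98 and 6.02 in control EB9, 6.36, 6.30, 6.20 and 6.33 in knockdown ES cells and 5.98, 5.92 and 6.0 in control ES cells. It differed by −0.32 (adjusted p = 2.69e-05) in knockdown and 0.05 (adjusted p = 0.424) in control cells, and the first call was kept under none of the 3 other scalings. Atp5g3 read 6.08, 6.19, 6.17 and 6.12 in knockdown EB9, 6.24, 6.18, 6.20 and 6.08 in control EB9, 5.65, 5.97, 5.62 and 5.88 in knockdown ES cells and 6.17, 6.22 and 6.36 in control ES cells. Only its knockdown ES arrays stood apart, below those of the other 3 groups, and its EB9 minus ES difference was 0.36 (adjusted p = 0.000868) in knockdown and −0.07 (adjusted p = 0.452) in control cells.

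**Figure D2:**
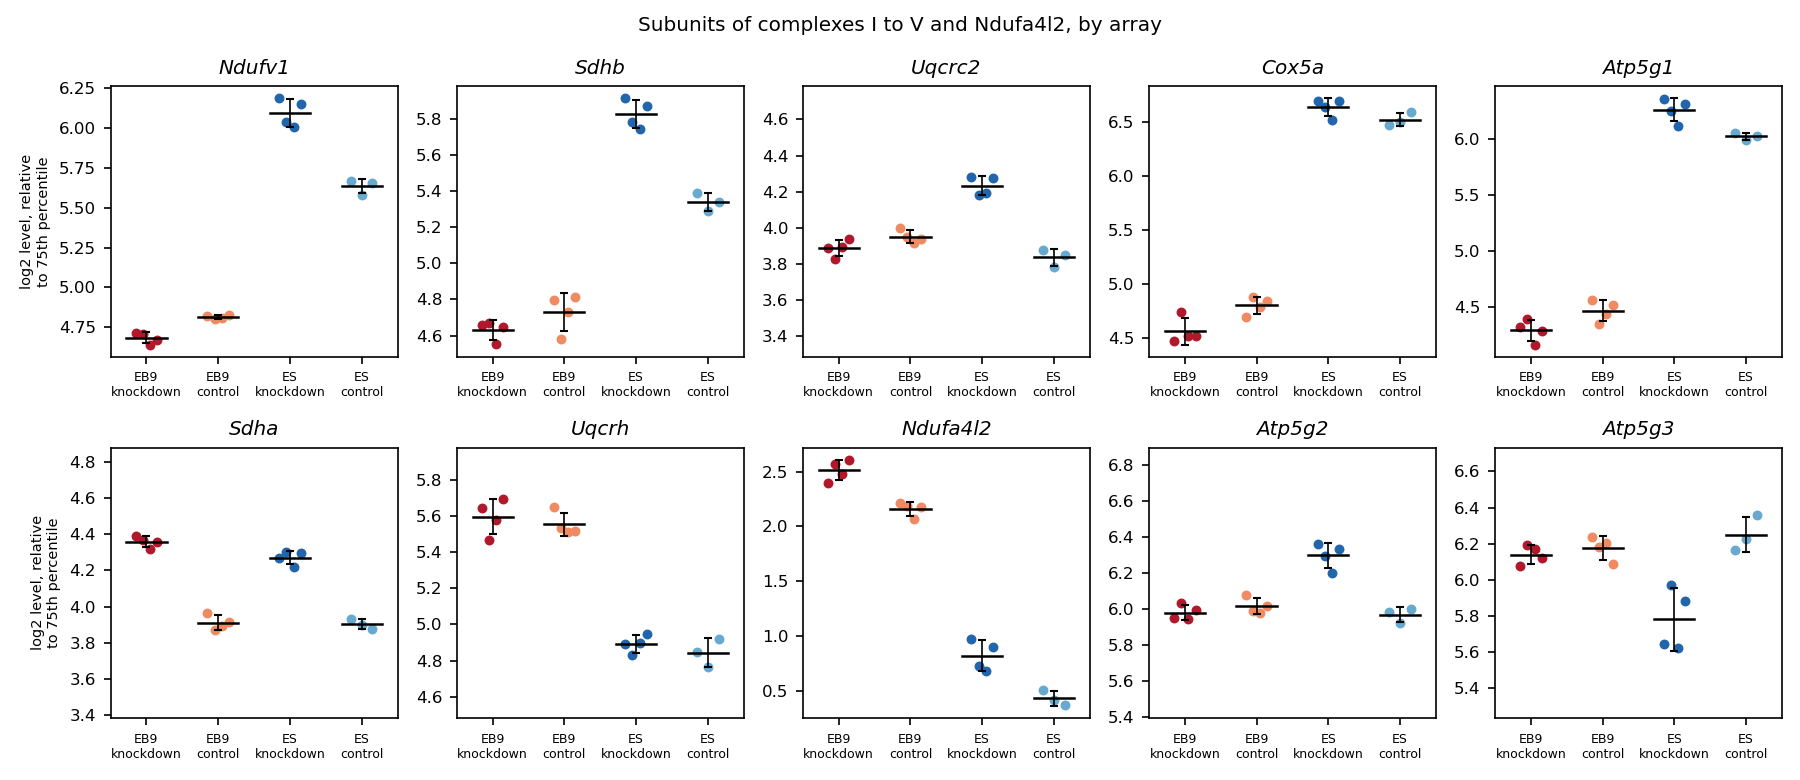
Log2 levels relative to each array's 75th percentile for 10 members, with 1 point per array in knockdown EB9, control EB9, knockdown ES cells and control ES cells, the mean as a line and the SD as a bar. Ndufv1, Sdhb, Cox5a and Atp5g1 lie lower in EB9, Uqcrh and Ndufa4l2 lie higher there, and Sdha lies higher in both knockdown groups.

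The isoforms of complex IV did not all move the same way. Of the 6 that were tested, 5 fell and 1 rose in both EB9 comparisons. Cox4i2, the isoform of lung and of low oxygen in mammals (mm9 chromosome 2, 152590711 to 152590770), read −0.18, 0.19, 0.07 and 0.20 in knockdown EB9, −0.13, −0.07, −0.08 and −0.04 in control EB9, −1.82, −1.71, −1.67 and −1.84 in knockdown ES cells and −1.81, −1.70 and −1.63 in control ES cells. All EB9 arrays lay above all ES arrays, by 3.57-fold in knockdown cells (adjusted p = 9.47e-11) and 3.1-fold in control cells (adjusted p = 8.08e-10). Its general counterpart Cox4i1 ran the other way, at −0.88 and −0.61.

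Cox6a2, the isoform of heart and skeletal muscle (mm9 chromosome 7, 135349160 to 135349219), read −3.82, −3.08, −3.30 and −3.12 in knockdown EB9, −3.55, −3.44, −4.0 and −3.86 in control EB9, 0.17, −0.11, −0.15 and 0.16 in knockdown ES cells and −1.12, −1.26 and −1.24 in control ES cells. The 4 knockdown ES arrays were highest, the 3 control ES arrays came next and the EB9 arrays were lowest, with knockdown and control EB9 overlapping. The difference between EB9 and ES cells was −3.35 ± 0.16 (SE, adjusted p = 3.24e-10) in knockdown cells, 10.2-fold lower, and −2.50 ± 0.18 (SE, adjusted p = 1.8e-08) in control cells, 5.67-fold lower. Its general counterpart Cox6a1 differed by −1.13 and −0.77.

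The muscle isoform Cox7a1 (mm9 chromosome 7, 30970337 to 30970948, a span that includes an intron) read 0.78, 0.99, 0.75 and 0.97 in knockdown EB9, 0.91, 0.57, 0.49 and 0.72 in control EB9, 3.39, 3.11, 3.21 and 3.40 in knockdown ES cells and 2.98, 2.86 and 3.04 in control ES cells. It was 5.3-fold lower in knockdown EB9 and 4.89-fold lower in control EB9, with no overlap. Cox7a2, the counterpart found in most tissues, read 2.68, 2.79, 2.75 and 2.73 in knockdown EB9, 2.75, 2.84, 2.84 and 2.84 in control EB9, 3.29, 3.28, 3.27 and 3.33 in knockdown ES cells and 3.70, 3.71 and 3.81 in control ES cells, and differed by −0.55 and −0.92. The testis isoform Cox6b2 read −0.31, −1.05, −0.55 and −0.45 in knockdown EB9, −0.55, −1.11, −0.84 and −0.79 in control EB9, 0.75, 0.43, 0.55 and 0.72 in knockdown ES cells and 1.42, 1.2 and 1.22 in control ES cells. It was 2.31-fold lower in knockdown EB9 and 4.3-fold lower in control EB9, against −0.56 and −0.20 for Cox6b1.

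The promoters of these pairs are shown because the tissue isoforms and their general counterparts differ in content of the dinucleotide CG, the site of DNA methylation, which is in capitals. The sequences run 5′ to 3′ along the gene, from 250 bases before to 50 after the start, and are from RefSeq on GRCm38.p6, a later build than the probe positions. They are Cox7a1 (chr7:30183921-30184220, plus strand), Cox7a2 (chr9:79759804-79760103, minus strand), Cox6b2 (chr7:4753045-4753344, minus strand) and Cox6b1 (chr7:30626065-30626364, minus strand).
Cox7a1: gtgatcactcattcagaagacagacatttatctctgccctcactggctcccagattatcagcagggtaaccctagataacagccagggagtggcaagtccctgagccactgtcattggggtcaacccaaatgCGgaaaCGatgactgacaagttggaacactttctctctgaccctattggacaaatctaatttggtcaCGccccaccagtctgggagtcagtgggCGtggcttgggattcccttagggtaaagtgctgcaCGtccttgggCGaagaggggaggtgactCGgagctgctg
Cox7a2: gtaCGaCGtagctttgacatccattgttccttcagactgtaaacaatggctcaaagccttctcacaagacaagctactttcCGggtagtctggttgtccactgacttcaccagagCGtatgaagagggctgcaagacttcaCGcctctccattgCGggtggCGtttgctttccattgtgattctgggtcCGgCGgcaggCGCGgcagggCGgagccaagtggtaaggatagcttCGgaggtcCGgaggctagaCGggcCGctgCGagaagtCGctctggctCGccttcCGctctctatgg
Cox6b2: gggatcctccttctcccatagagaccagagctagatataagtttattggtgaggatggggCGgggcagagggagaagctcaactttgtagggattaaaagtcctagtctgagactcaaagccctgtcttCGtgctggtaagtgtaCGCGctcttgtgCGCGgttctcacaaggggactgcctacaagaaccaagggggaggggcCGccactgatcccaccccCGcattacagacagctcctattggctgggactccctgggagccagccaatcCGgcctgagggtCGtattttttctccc
Cox6b1: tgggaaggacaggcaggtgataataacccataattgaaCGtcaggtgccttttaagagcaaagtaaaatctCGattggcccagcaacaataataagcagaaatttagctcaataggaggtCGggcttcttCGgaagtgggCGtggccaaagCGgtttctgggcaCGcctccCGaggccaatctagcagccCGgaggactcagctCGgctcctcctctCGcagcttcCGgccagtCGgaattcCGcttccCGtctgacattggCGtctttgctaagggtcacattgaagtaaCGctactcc

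The Cox7a1 promoter held 7 CG and that of Cox7a2 20, and the Cox6b2 promoter held 10 and that of Cox6b1 17. Of the other pairs with both promoters, Cox8b held 2 CG and Cox8a 19, while the order was turned round for Cox7b2 with 10 and Cox7b with 5. Over the 4 tissue isoforms with a promoter the median was 8.5 (2 to 10), over 63 other subunits it was 20 (5 to 43), and over all 27025 genes it was 8. A gene with several promoters counts by the one with most CG. These counts describe the windows, and DNA methylation was not measured.

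The remaining isoforms, both known from testis, had low signals. Cox8c (mm9 chromosome 12, 104138678 to 104138736) read −7.01, −6.88, −6.60 and −6.95 in knockdown EB9, −7.63, −6.16, −6.98 and −7.37 in control EB9, −1.67, −1.56, −1.60 and −1.54 in knockdown ES cells and −1.13, −1.02 and −1.03 in control ES cells. It was well above background on all ES arrays, on none of the 4 knockdown EB9 arrays and on 1 of the 4 control EB9 arrays. A probe with no array of a group above background has only a bound there, set by the dimmest feature that passed the background test on that array, and Cox8c was at least 35.2-fold lower in knockdown EB9. In control cells, with 3 of 4 EB9 arrays below background, the size of the difference is not settled: it was −5.97 (adjusted p = 8.68e-11) here and −3.49 with normexp correction and quantile normalisation. Cox7b2 was above background on all ES arrays and on no EB9 array, at least 3.05-fold lower in knockdown EB9 and at least 11.4-fold lower in control EB9. These bounds hold for the processed signals only, because with normexp correction and quantile normalisation the differences were −3.03 for Cox8c in knockdown cells and −0.47 and −1.92 for Cox7b2 in knockdown and control cells. It read −5.19, −5.17, −5.08 and −5.23 in knockdown ES cells, against −3.12, −3.19 and −3.08 in control ES cells. The general subunits Cox7b and Cox8a stayed well above background on every array.

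**Figure D3:**
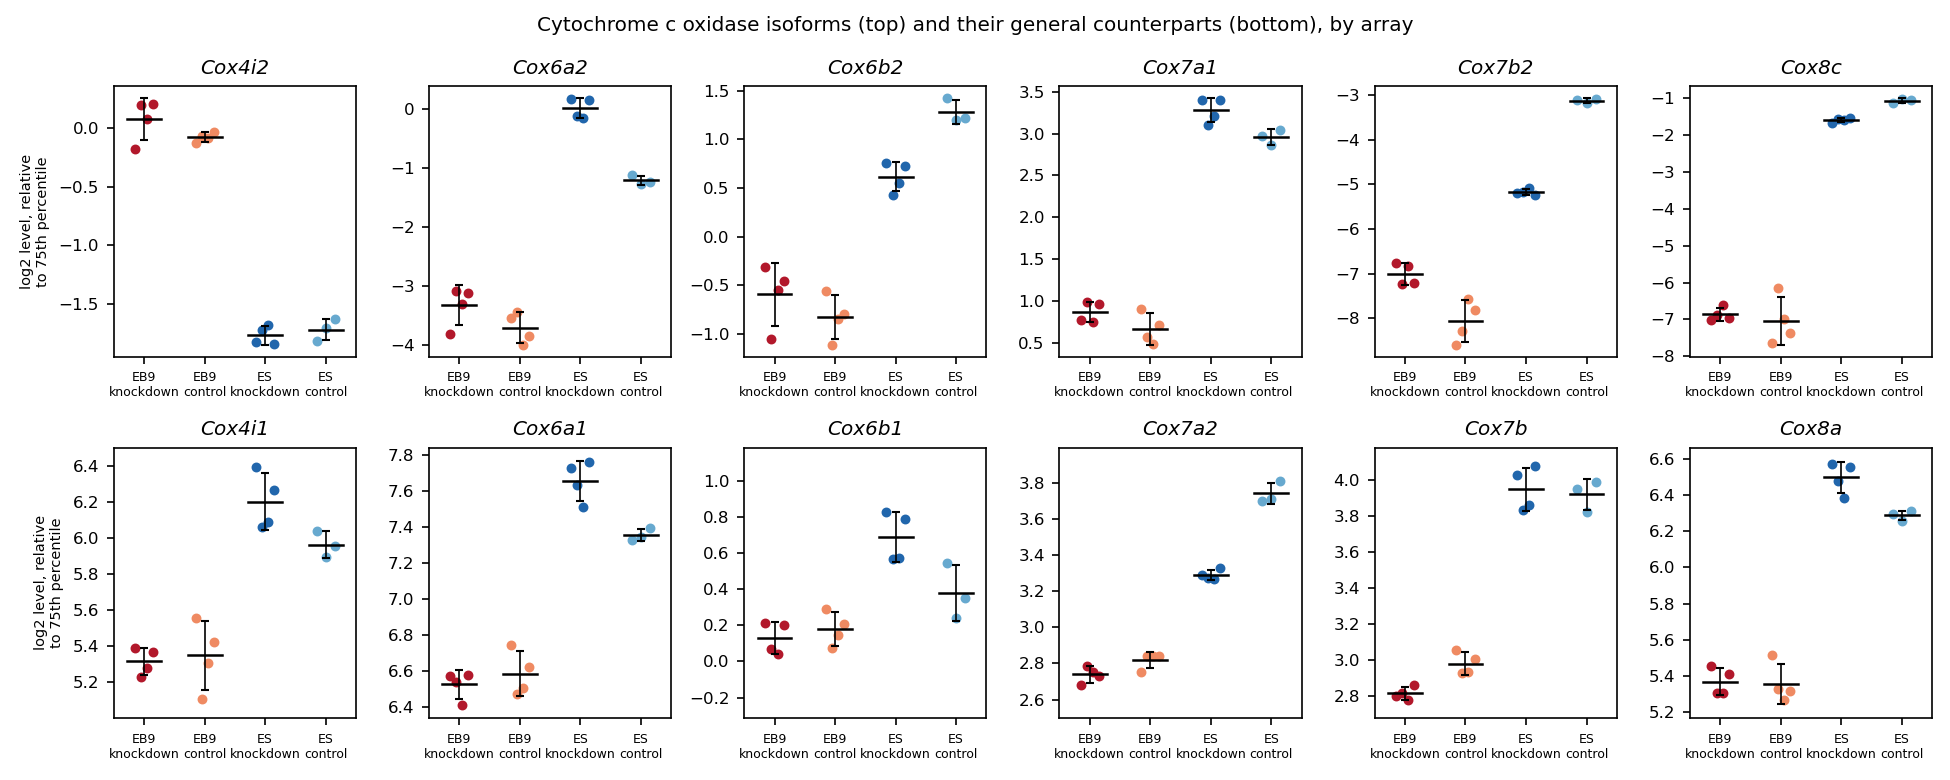
Log2 levels relative to each array's 75th percentile for 6 tissue isoforms of complex IV (top) and their general counterparts (bottom), with 1 point per array, the mean as a line and the SD as a bar. Cox4i2 is the isoform that lies higher in EB9, and Cox6a2, Cox7a1, Cox6b2, Cox7b2 and Cox8c lie lower there.

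Of the assembly factors and other proteins, 8 fell and 3 rose in knockdown cells, and 8 fell and 2 rose in control cells. Ndufaf2 and Ndufaf4, which help build complex I, differed by −1.58 and −1.2 in knockdown and by −1.33 and −1.03 in control cells. Sdhaf2, which attaches the flavin to Sdha, rose by 0.38 and 0.77, whereas Sdhaf1, which serves the iron-sulphur subunit Sdhb, differed by −1.14 and −0.97. Ndufa4l2, a paralogue of Ndufa4 known as a target of the hypoxia factor HIF-1 (mm9 chromosome 10, 126954149 to 126954208), read 2.40, 2.57, 2.48 and 2.60 in knockdown EB9, 2.21, 2.18, 2.07 and 2.18 in control EB9, 0.98, 0.73, 0.68 and 0.90 in knockdown ES cells and 0.51, 0.42 and 0.37 in control ES cells. All EB9 arrays lay above all ES arrays, by 3.22-fold in knockdown and 3.3-fold in control cells. Ndufa4 itself fell, so the 2 paralogues went opposite ways, as Cox4i2 and Cox4i1 did. Cox4nb, which is no respiratory subunit, fell by 1.51 and 0.98.

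Several members had more than 1 probe, and those of 26 members were compared. For Ndufab1 and Atp5c1, named after their values were seen, probes of 1 gene passed in opposite directions. The probes of Ndufab1, the mitochondrial acyl carrier protein, gave −0.78 and 0.54 in knockdown and −0.50 and 0.63 in control EB9 against ES cells. Those of the F1 subunit Atp5c1 gave −0.57 and 0.72 in knockdown cells. The probes of Ndufab1 also disagreed between knockdown and control ES cells, at 0.22 and −0.23, both of which passed. Between knockdown and control EB9 its second probe differed by −0.32 (adjusted p = 0.00837), where the brightest did not pass (−0.06, adjusted p = 0.579). The directions of these 2 members are therefore uncertain. In EB9 against ES cells, further probes of 2 complex I members rose where the brightest did not pass. The second probe of Ndufv3 was higher in EB9 by 2.02 (adjusted p = 9.72e-11) in knockdown and 2.19 (adjusted p = 1.08e-10) in control cells, against −0.03 and 0.09 for the brightest, and a further probe of Ndufb11 was higher by 0.77 (adjusted p = 0.00104) in control cells. No direction is given for Ndufv3 or, in control cells, for Ndufb11. Between knockdown and control ES cells the second probe of Ndufa3 rose by 0.79 (adjusted p = 0.00128), where the brightest did not pass (0.15, adjusted p = 0.369). In control EB9 against control ES cells that second probe gave 0.15 (adjusted p = 0.404), against −0.64 (adjusted p = 0.000268) for the brightest. The fall of Ndufa3 in control cells therefore rests on its brightest probe.

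The second question was how Cbx7 knockdown ES cells differ from control ES cells. Here 41 of 91 members rose and 10 fell, where 21.9% of all genes rose and 16.5% fell, with a median of 0.14 against 0.04 for all genes. This excess of higher calls rests on the scaling. With quantile normalisation 17 rose and 15 fell (all genes 19.2% and 17.2%), with the authors' deposited values 17 rose and 13 fell (17.5% and 16.9%), and with median scaling 17 rose and 6 fell (16% and 11%). Under all 3 other scalings 19 calls were kept, 13 higher and 6 lower, and the calls of single members described next are among them unless stated. The counts by complex that follow also include calls that were not kept. With a slide term 44 rose and 13 fell, where 27.3% and 20.2% of all genes did. Within slides 1 to 3 the median member differed by 0.20, 0.14 and 0.05, against 0.08, 0.06 and 0.02 for all genes. Markers of cell types moved in the same comparison. Of 8 ES cell markers, 1 rose and 3 fell, with summed linear levels of 177 to 197 in knockdown and 204 to 219 in control ES cells. Of 9 markers of differentiated layers, 4 rose and 3 fell, with sums of 12.5 to 13.9 in knockdown and 9.46 to 10.2 in control ES cells. The keratin genes Krt18 and Krt8, the brightest of these markers, lead the sums and lay higher on all knockdown than on all control ES arrays. Gata4, Pax6 and T also lay higher, while Foxa2, Gata6 and Col1a1 lay lower on all knockdown arrays. The higher sums therefore describe the keratin genes and not the list as a whole. Of 6 skeletal muscle markers 3 fell, and of 5 germ line and testis markers 2 rose. The part of these markers in the members' differences was not tested.

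Complex I held 22 of the 41 higher calls and 1 lower call, with a median of 0.22, and 6 of its 7 core subunits rose. Of these core subunits, Ndufs3 and Ndufs7 were kept under none of the 3 other scalings. Ndufv1 read 6.19, 6.03, 6.0 and 6.15 in knockdown ES cells, against 5.67, 5.58 and 5.66 in control ES cells. All knockdown arrays lay above all control arrays, and the difference was 0.46 ± 0.05 (SE, adjusted p = 1.94e-05), 1.37-fold higher, and 0.35 to 0.52 within single slides. Ndufs4, an accessory subunit late in assembly, differed by 0.45 ± 0.04 (SE, adjusted p = 3.46e-06). Also kept under every scaling were Ndufs1, Ndufv2, Ndufb4 and Ndufb11, at 0.41, 0.34, 0.41 and 0.41. Ndufb3 was the lower call, at −0.21 (adjusted p = 0.00541), and was not among those kept.

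In complex II the electron-carrying subunits Sdha and Sdhb rose, and the membrane anchors Sdhc and Sdhd did not pass. Sdhb read 5.91, 5.78, 5.75 and 5.87 in knockdown ES cells, against 5.39, 5.29 and 5.34 in control ES cells, a difference of 0.49 ± 0.06 (SE, adjusted p = 7.39e-05). Sdha, with levels given above, differed by 0.37 ± 0.04 (SE, adjusted p = 2.29e-05). Neither gene's arrays overlapped between the groups. Uqcrc2 of complex III read 4.28, 4.18, 4.19 and 4.27 in knockdown ES cells, against 3.88, 3.79 and 3.85 in control ES cells, a difference of 0.40 ± 0.05 (SE, adjusted p = 3.11e-05), again without overlap. The 2 other complex III members that rose were Uqcrc1 and Uqcrb, at 0.28 and 0.27, and these were not kept under every scaling.

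In complex IV, 6 of 17 members rose and 4 fell, and isoforms made up the extremes. Cox5b, Cox6a1, Cox7a1 and Cox8a were among those that rose, but were kept under none of the other scalings. Cox6a2 rose by 1.22 ± 0.18 (SE, adjusted p = 0.000142), 2.34-fold, with differences of 1.09 to 1.29 within slides. Cox7b2, Cox6b2 and Cox7a2 fell. Cox7b2 differed by −2.04 ± 0.20 (SE, adjusted p = 6.63e-06), 4.11-fold lower, and the arrays given above did not overlap, but with normexp correction and quantile normalisation it differed by −1.28. Cox6b2 was 1.58-fold lower (adjusted p = 0.00642) and Cox7a2 1.37-fold lower (adjusted p = 9.74e-06). Cox8c, the other testis isoform, differed by −0.53 (adjusted p = 0.12), and Cox4i2 by −0.05 (adjusted p = 0.728).

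Complex V showed 4 higher and 2 lower calls, all among the 9 Fo members. With limma no F1 member passed by its brightest probe, and none of these probes had an unadjusted p under 0.05. Atp5a1 and Atp5b differed by 0.13 (adjusted p = 0.128) and 0.08 (adjusted p = 0.446). A second probe of the F1 subunit Atp5c1 was lower, at −1.08 (adjusted p = 0.0101), against 0.10 (adjusted p = 0.357) for its brightest. With a slide term Atp5a1 rose (adjusted p = 0.00869). The c-subunit genes were again unequal. Atp5g3 fell by 0.47 (adjusted p = 0.000741) and was kept under every scaling, while Atp5g1 and Atp5g2 differed by 0.24 (adjusted p = 0.0196) and 0.33 (adjusted p = 0.000218) and were not. Among the other proteins, Ndufa4l2 rose by 0.39 ± 0.08 (SE, adjusted p = 0.00168) and the assembly factor Ndufaf1 fell by 0.39 (adjusted p = 0.00105).

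**Figure D4:**
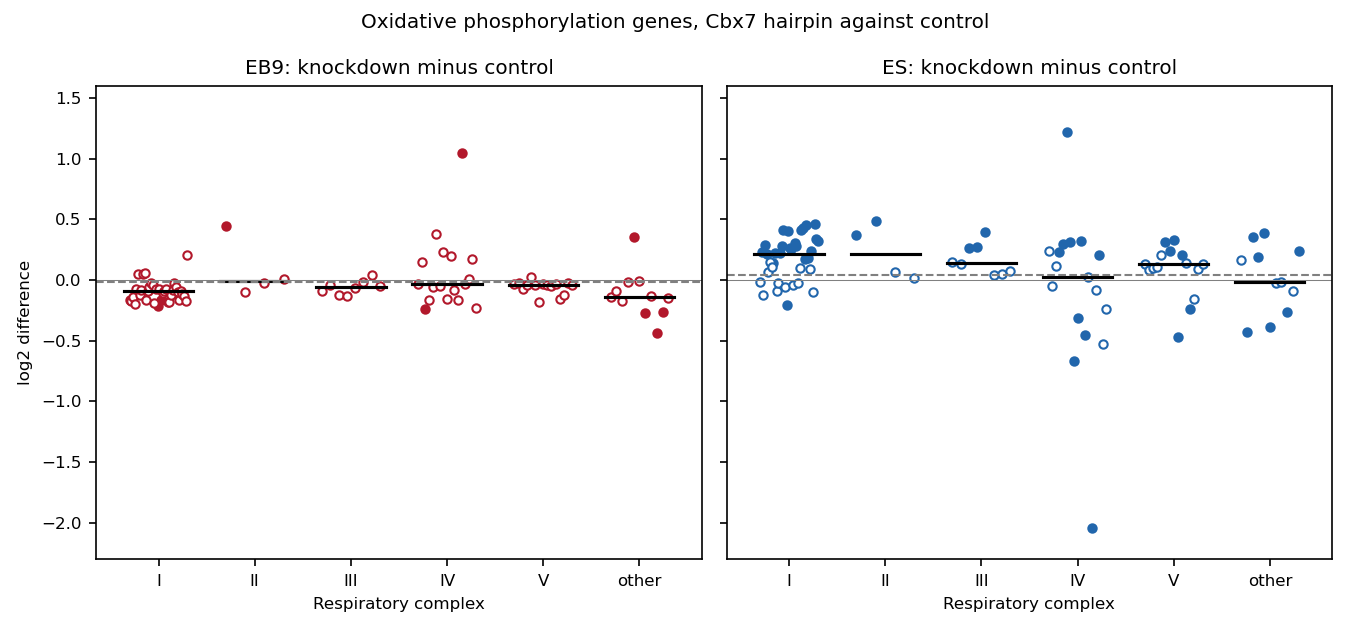
Log2 differences of the 91 tested members between Cbx7 knockdown and control by complex, in EB9 (left) and ES cells (right). Filled points passed an adjusted p of 0.05, the bars are the medians of each complex, and the dashed line is the median of all tested genes. In ES cells many complex I points lie above 0, and in EB9 a total of 9 members passed.

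Between knockdown and control EB9, 9 members passed, and neither Cbx7 probe passed there, with or without a slide term. With limma 3 rose and 6 fell, where 7.97% of all genes rose and 7.19% fell, and the median member differed by −0.08 against −0.01 for all genes. The member shares are below these, at 3 and 6 of 91. Sdha read 4.39, 4.37, 4.32 and 4.35 in knockdown EB9, against 3.97, 3.87, 3.89 and 3.91 in control EB9. The groups did not overlap, the difference was 0.45 ± 0.04 (SE, adjusted p = 5.17e-05), 1.36-fold higher, and within the 4 slides it was 0.42 to 0.50. Sdha thus rose in the knockdown arrays of both cell types. Ndufa4l2 also rose, by 0.35 ± 0.07 (SE, adjusted p = 0.00703). The other higher call was Cox7b2, whose signals lay below background in both EB9 groups, so no fold is given.

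The 6 members that fell in knockdown EB9 by their brightest probe were the complex I subunits Ndufb4 and Ndufb6, the complex IV subunit Cox5a and the assembly factors Ndufaf2, Ndufaf4 and Sdhaf1. Ndufaf4 read −0.04, 0.12, −0.16 and −0.13 in knockdown EB9, against 0.23, 0.45, 0.38 and 0.46 in control EB9, and the difference of −0.44 ± 0.07 (SE, adjusted p = 0.00221) left no overlap. The other 5 differed by −0.27 to −0.17, with adjusted p of 0.0161 to 0.0484. No member of complexes III or V passed, and at an unadjusted p under 0.05 2 members of each were lower and none higher. That call depended on the slide, as with a slide term Uqcrc1, Uqcrb and Atp5g1 fell (adjusted p = 0.0179, 0.0437 and 0.041). Under all 3 other scalings only the calls of Sdha and Ndufaf4 were kept. With median scaling 2 members rose and 1 fell. The count depended on single arrays, being 18 without EB9 knockdown 2, 14 without EB9 control 1 and 4 without EB9 knockdown 3, EB9 knockdown 4 or EB9 control 4.

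A slide term raised the count in EB9 to 4 higher and 22 lower, where 13.5% of all genes rose and 13.2% fell. In all, 17 members newly passed with it, among them Ndufv1, Ndufv2 and Ndufs1 as lower, and none was lost. Within slides 1 to 4 the median member differed by −0.11, 0.00, −0.10 and −0.10, against −0.02, −0.04, 0.01 and 0.05 for all genes. Of the 91 members 82, 45, 67 and 69 were negative, and of 21217 genes 11147, 12535, 10349 and 9198. The median member lay below the median of all genes on 3 of the 4 slides and above it on slide 2. Of 8 ES cell markers, 3 rose in knockdown EB9.

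The knockdown effect was then compared between EB9 and ES cells by the interaction term of the model, the EB9 difference minus the ES difference. It was more negative for 34 members and more positive for 6, where 16.9% of all genes were lower and 12.7% higher. With a slide term these were 41 and 6, where 23.5% and 17.5% of all genes passed. The scaling moved this split too, to 16 lower and 9 higher with the authors' deposited values (all genes 13.1% and 13%), 21 and 10 with quantile normalisation (14.7% and 13.7%) and 16 and 1 with median scaling (11.8% and 6.7%). In all, 13 of the 40 calls were kept under every scaling. Because all 4 groups enter this term, it shares its samples with the comparisons above.

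Complex I held 19 of the lower calls. Ndufv1 had knockdown effects of −0.13 in EB9 and 0.46 in ES cells, a difference of −0.59 ± 0.07 (SE, adjusted p = 6.27e-05). Sdhb had −0.10 and 0.49, a difference of −0.59 ± 0.09 (SE, adjusted p = 0.00034). Sdha, in contrast, had 0.45 and 0.37, and its effects differed by 0.08 (adjusted p = 0.356). The effect on Cox6a2 was 0.38 in EB9 and 1.22 in ES cells, a difference of −0.85 ± 0.24 (SE, adjusted p = 0.018). Uqcrc1 and Uqcrc2 differed by −0.41 and −0.46, and Ndufb4, Ndufv2 and Ndufs4 by −0.62, −0.51 and −0.51. All of these except Sdha were among the 13 kept.

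Other parts of the pathway were followed through lists chosen with earlier results of these data known. Of 6 mitochondrially encoded transcripts, 5 fell in EB9 in both comparisons, and ND6 rose in control cells. The complex I transcript ND5 differed by −1.84 in knockdown and −1.35 in control cells, and the complex IV transcript COX1 by −1.06 and −0.52. Of 8 nuclear respiratory genes outside the name prefixes, 7 fell in both. Among them, Cyc1 of complex III differed by −1.69 and −1.17, Cycs, the general cytochrome c, by −1.67 and −1.31, and Cyct, the testis cytochrome c, by −5.57 and −5.67.

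The lower levels extended to other mitochondrial lists. Of 77 mitochondrial ribosome genes, 67 fell and 5 rose in knockdown EB9 against knockdown ES cells, and 62 fell and 7 rose in the control comparison. Of 16 citric acid cycle and pyruvate dehydrogenase genes, 15 and 12 fell, with Idh3a, a subunit of isocitrate dehydrogenase, at −2.01 and −1.24. Of 16 glycolysis genes, 14 rose and 1 fell in knockdown cells, and 11 rose and 3 fell in control cells, with the triosephosphate isomerase gene Tpi1 at 1.84 and 1.94. Among 12 regulators of mitochondrial biogenesis, 4 rose and 8 fell in both. The coactivator Ppargc1b differed by −2.02 and −2.36, the nuclear receptor Esrra by −0.85 and −1.0, the mitochondrial DNA factor Tfam by −0.44 and −0.39, and the transcription factor Nrf1 by 0.17 and 0.35. Ppargc1a, a coactivator that induces mitochondrial genes, also rose, but it was above background on every EB9 array and on no ES array, so no fold is given. Of 20 assembly factors, 14 fell and 2 rose in knockdown cells and 13 fell and 2 rose in control cells, with the complex I factor Ecsit at −2.19 and −1.64. These counts stand beside the shares of all genes given above (44.1% and 33.8% in knockdown, 41.5% and 33.2% in control cells).

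Between knockdown and control ES cells, 29 mitochondrial ribosome genes rose and 12 fell, 7 citric acid cycle genes rose and 1 fell, and 6 glycolysis genes rose and 3 fell, where 21.9% and 16.5% of all genes moved. The mitochondrially encoded ND5 and COX1 rose there by 0.59 and 0.50, and ND3 fell by 0.37. In EB9, 8 mitochondrial ribosome genes and 4 citric acid cycle genes fell, and 5 glycolysis genes rose, among them Hk2, a hexokinase, by 0.67, where 7.19% fell and 7.97% rose over all genes. These list counts were not repeated under the other scalings, which moved the members' split in ES cells.

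**Figure D5:**
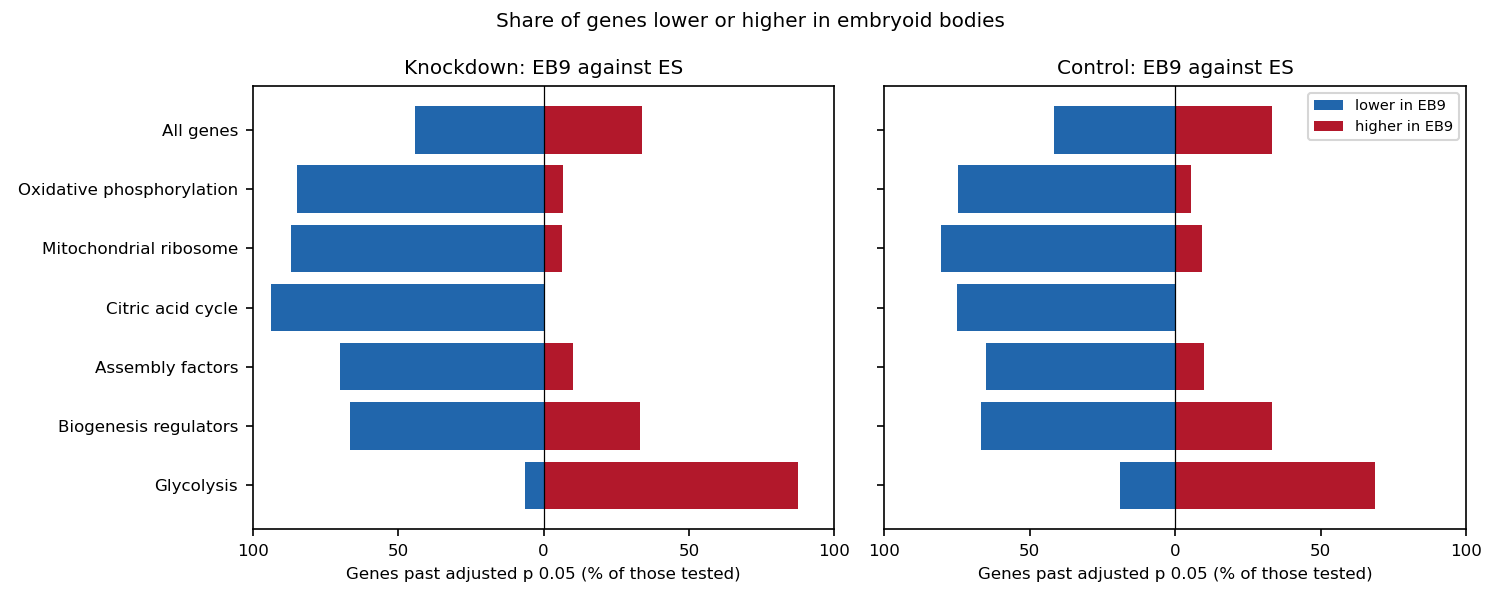
Percent of the tested genes of each list that were lower or higher in EB9 than in ES cells at an adjusted p of 0.05, in knockdown and control cells, with all tested genes for comparison. The respiratory and mitochondrial ribosome lists lean to lower, and the glycolysis list leans to higher.

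Marker lists of cell types moved in the same comparisons, and their part in the members' differences was not tested. Of 9 markers of differentiated layers, 7 rose and 2 fell in knockdown cells and 8 rose in control cells, with summed linear levels of 195 to 255 in knockdown EB9, 206 to 238 in control EB9, 12.5 to 13.9 in knockdown ES cells and 9.46 to 10.2 in control ES cells. Krt18 and Krt8 were the brightest of these markers on every array and lead these sums too. Afp was never above background in ES cells. Of 8 cardiac markers tested, 5 rose and 3 fell in both, with sums of 3.75 to 6.87, 3.51 to 6.83, 2.50 to 3.03 and 2.72 to 3.13 in the same 4 groups, and Actc1 was never above background in ES cells. Of the 6 skeletal muscle markers, 2 rose and 3 fell in both. They summed to 0.884 to 1.56, 1.05 to 1.48, 1.14 to 1.25 and 2.40 to 2.48 in the same order, and the defining genes Ckm and Myog were never above background in EB9, nor Tnnt3 in knockdown ES cells. The cardiac and skeletal sums mix genes that moved opposite ways. Of the cardiac markers, Myh6 read 0.77 to 1.03 in control ES cells and −1.16 to 0.12 in control EB9. Myh7 read −1.94 to −1.79 and 0.47 to 1.70 in these groups. Of the skeletal markers, Myh3 read 1.21 to 1.26 in control ES cells and −5.81 to −5.06 in control EB9. Acta1 read −6.18 to −5.95 and −0.29 to 0.30 in these groups. The muscle isoforms Cox6a2 and Cox7a1 fell in EB9, where the cardiac sums were higher, and a link to these markers was not tested. All 5 germ line and testis markers fell in EB9, as the testis isoforms did. Their sums were 1.37 to 2.02 in knockdown EB9, 1.12 to 1.92 in control EB9, 9.55 to 10.1 in knockdown ES cells and 7.33 to 7.37 in control ES cells. The sums were thus higher in knockdown than in control ES cells, but single markers went opposite ways. Ddx4 read 1.23 to 1.43 in knockdown and 0.79 to 0.92 in control ES cells. Ldhc read 0.01 to 0.24 and 0.28 to 0.56 in these groups, and Dazl −0.57 to −0.45 and −0.41 to −0.31. In that comparison the testis isoforms Cox7b2 and Cox6b2 were lower, by 2.04 and 0.66, and Cox8c did not pass.

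Promoters of 76 of the 92 members were found in the RefSeq table, and 4 motifs were searched in them on both strands, none of which contains another. The nuclear respiratory factor motif GCGCATGCG occurred in 9 members (11.8%) and in 1.95% of all 27025 genes, where a match in any promoter of a gene counts. The GABP motif CCGGAAG occurred in 25.0% against 9.93%, the YY1 motif AAGATGGCG in 10.5% against 1.64% and the hypoxia response motif ACGTGC in 6.58% against 6.68%. All 4 motifs contain CG, and the median CG count was 20 in the 63 other subunits and 8 in all genes. The shares were not adjusted for this. Members with the first motif were Atp5g2, Atp5k, Atp5l, Cox6a1, Ndufa8, Ndufa11, Ndufaf4, Uqcr11 and Uqcrc1, and their EB9 minus ES differences in control cells ran from −1.26 for Uqcrc1 to 0.05 for Atp5g2. Their median was −0.36 in control and −0.47 in knockdown cells, against −0.61 and −0.85 for the other members with a promoter. Matches describe the letters of these windows and not binding. The promoters of Cox6a1 (chr5:115348909-115349208, minus strand) and Atp5g2 (chr15:102670998-102671297, minus strand) on GRCm38.p6 are shown with the motif and its reverse complement, which overlap, in capitals. They are examples of the same letters, 162 and 42 bases before the start, in a member that fell in control EB9 and in one that did not pass.
Cox6a1: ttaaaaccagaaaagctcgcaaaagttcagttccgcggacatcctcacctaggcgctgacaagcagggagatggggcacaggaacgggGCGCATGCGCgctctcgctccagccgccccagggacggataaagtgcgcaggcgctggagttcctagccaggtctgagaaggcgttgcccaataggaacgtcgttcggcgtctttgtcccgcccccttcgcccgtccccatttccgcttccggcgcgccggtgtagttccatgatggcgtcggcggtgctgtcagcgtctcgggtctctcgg
Atp5g2: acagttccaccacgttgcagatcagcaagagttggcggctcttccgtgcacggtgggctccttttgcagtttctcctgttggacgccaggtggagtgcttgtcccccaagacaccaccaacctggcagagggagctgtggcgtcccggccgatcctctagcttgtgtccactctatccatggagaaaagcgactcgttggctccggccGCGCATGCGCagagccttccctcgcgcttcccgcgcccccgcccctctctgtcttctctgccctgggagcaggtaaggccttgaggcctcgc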

How the data were processed

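Total RNA of 15 samples in 4 groups was labelled with Cy3 from oligo-dT priming and hybridised to 1-colour Agilent arrays, per the labels. Scans were read by the authors in Agilent Feature Extraction 10.7.3.1, whose processed signal, as deposited, is an intensity corrected for background but not scaled between arrays, per the file headers. A second table that the authors deposited gives log2 values, and normexp correction with an offset of 50 and quantile normalisation gave the same values within 0.000154. Probe positions are on mm9, per the file headers.

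Each array had 44397 features, 43020 of them not controls. Levels are log2 of that signal minus the array's own 75th percentile, without flagged spots and with repeated spots averaged over 39429 probes. Of these, 27248 passed the software's background test on at least 3 arrays of any group, and the brightest kept probe stood for its gene name. A difference in log2 units was tested with limma 3.58.1 in R 4.3.3 with the package data.table (version 1.17.8) over all 15 arrays, with 1 mean per group, 11 residual and 1.61 prior degrees of freedom and two-sided tests, with Benjamini-Hochberg adjustment over 21217 genes. Cbx7 probes were tested among all kept probes. The model was checked on simulated data. Promoters were searched, and figures drawn with Python 3.11.15, pandas 2.3.3 and matplotlib 3.10.9.

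The members and lists were chosen with earlier results of these data known. Genes named are the isoform pairs, 10 core subunits, the most changed member of each complex and direction in each comparison, members changed at least 2-fold, the most changed genes of the other lists and 8 regulators and cytochrome genes. Ndufb3, Ndufb11, Ndufs4, Ndufab1, Atp5c1, Sdhaf2 and other members outside this rule were named after their values were seen. A few results are not reported here. Alternatives were other scalings, the authors' values, no filter, the mean of probes, terms for slide or replicate number, array weights, only the groups compared, a stricter threshold and leaving out each array.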

Additional observations from a re-analysis of the deposited data

Results flagged for a closer look

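Of 168 tests of single arrays, each for 1 named member in 1 group of 4 arrays, 8 found an array far from the other 3 of its group, and chance alone flags about 1 in 20 groups. EB9 control 1 stood apart for Uqcrh (5.65, against 5.51 to 5.53 on the other arrays), Cox7a2 (2.75, against 2.84 on the nearest) and Atp5sl (2.46, against 2.63 to 2.64). EB9 knockdown 2 stood apart for Ndufaf2 (1.05, against 0.78 to 0.80) and Cox4nb (0.99, against 0.60 to 0.63). The others were Atp5b on EB9 knockdown 1 (6.39, against 6.55 to 6.57), Sdhaf1 on EB9 control 4 (0.44, against 0.29 to 0.30) and Cox7a2l on ES knockdown 4 (5.95, against 5.81 to 5.83).

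For 28 named members the interaction term found a knockdown effect that differed between EB9 and ES cells, given here as the EB9 effect minus the ES effect on the log2 scale. In complexes I and II the difference was −0.59 for Ndufv1 and Sdhb, −0.62 for Ndufb4, −0.54 for Ndufs1, −0.51 for Ndufv2, −0.48 for Ndufa12 and −0.42 for Ndufb6. It was −0.39 for Ndufb8, −0.36 for Ndufb9 and −0.30 for Ndufb10. In complex III it was −0.46 for Uqcrc2 and −0.41 for Uqcrc1. In complex IV it was −0.85 for Cox6a2, −0.40 for Cox5b, −0.36 for Cox6a1 and Cox6b1, −0.35 for Cox5a, 0.37 for Cox7a2 and 0.90 for Cox6b2. The value of 3.09 for Cox7b2 has no settled size, because its EB9 signals lay below background. Among the c-subunit genes it was −0.41 for Atp5g1, −0.36 for Atp5g2 and 0.43 for Atp5g3. Other values were −0.53 for Cox4nb, −0.20 for Cox7a2l, 0.34 for Atp5sl and 0.38 for Ndufaf1. The dependence of these calls on the scaling is given with the comparison.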

How the results depend on the processing

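Counts of members that passed between EB9 and ES cells stayed within 1.5 times of the main counts under every alternative tried. For the knockdown in ES cells the count of 51 became 30 with normexp correction and quantile normalisation and with the authors' deposited values, 32 with quantile normalisation of the processed signals, 23 with median scaling and 33 at an adjusted p under 0.01. For the knockdown in EB9 the count of 9 became 26 with a slide term, 23 with array weights, 4 with only the groups compared, 3 with median scaling and 4 at an adjusted p under 0.01. For the difference between these effects the count of 40 became 25 with normexp correction and with the authors' deposited values, 17 with median scaling, 62 with array weights and 23 at an adjusted p under 0.01. The causes were not tested.

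Leaving out 1 array at a time gave 81 to 85 passing members between knockdown EB9 and knockdown ES cells, 72 to 75 between the controls, 37 to 52 for the knockdown in ES cells, 4 to 18 in EB9 and 33 to 43 for the difference of the effects. The lowest counts in ES cells and for the difference were both without ES control 3. The same 280 results of single members under all alternatives gave 7280 values, of which 6885 kept their call, 262 no longer passed, 133 newly passed and 0 turned the direction of a call.

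Whether replicate numbers pair the arrays was judged, across genes, by how the arrays deviate from the means of their groups. Arrays of equal number correlated at a median of 0.34 (21 pairs, −0.59 to 0.55), and pairs with an ES control at −0.34 (9 pairs). Arrays on the same slide correlated at 0.43 (21 pairs, 0.21 to 0.63). ES controls 2, 3 and 4 lay on slides 1, 2 and 3, so the number does not stand for the slide there. With the replicate number as a block the counts were 84, 76, 52, 12 and 42 in the order of the previous paragraph. Dim probes limit the isoforms, since in EB9 Cox7b2 was well above background on no array and Cox8c on 1, and Cox8b was so on no array of any group.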
